A study of Mus musculus with 12 samples.

Results

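C3, Cfb, Cfd and C3ar1 are the genes of the central complement protein, of both proteases of the alternative pathway and of the receptor for the fragment C3a. They were chosen by name, as 4 of the 185 endogenous probes of an nCounter mouse inflammation panel, and 4 of 4 passed the filter on low counts that left 165 inflammation genes to test. Oviducts of 12 female CD1 mice, an outbred stock, aged 6 to 8 weeks, were each measured in 1 lane as bulk RNA of the whole organ. On the day of estrus every mouse had received phosphate-buffered saline intraperitoneally. The saline held 0 µg of lipopolysaccharide (LPS, a cell wall component of Gram-negative bacteria) in control mice, 2 µg in low-dose mice and 10 µg in high-dose mice. The LPS came from Escherichia coli serotype 055:B5, and oviducts were collected 24 h later from 4 mice per group. The panel held 0 of 5 listed oviduct epithelium markers, so the tissue label could not be checked against them.

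C3 is a soluble protein that is split into C3b, which tags surfaces, and C3a, a small peptide that signals to cells. In the alternative pathway, C3b binds factor B (the product of Cfb), and factor D (the product of Cfd) cuts the bound factor B, which yields an enzyme that splits more C3. The receptor C3aR, encoded by C3ar1, is a G protein-coupled receptor found on macrophages and other myeloid cells. C3 and factor B are made by the liver and also locally by epithelial and myeloid cells during inflammation, whereas factor D in the mouse is a main product of adipocytes, for which it is also called adipsin.

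The stretch from 250 bases before to 50 bases after the annotated start was at hand for 3 of the genes (RefSeq, assembly GRCm38.p6), and it is printed because it is the DNA next to which factors induced by LPS can bind. Searched on both strands were the letters TTGCNNAA (C/EBP family), TTCNNNGAA (STAT family), GAAANNGAAA (interferon-stimulated response element), the core promoter element TATAAA and an NF-kB site. Capitals mark the matches, each sequence runs 5′ to 3′ along the gene's own strand, and Cfb is named only.
C3 (chr17:57228087-57228386, minus strand): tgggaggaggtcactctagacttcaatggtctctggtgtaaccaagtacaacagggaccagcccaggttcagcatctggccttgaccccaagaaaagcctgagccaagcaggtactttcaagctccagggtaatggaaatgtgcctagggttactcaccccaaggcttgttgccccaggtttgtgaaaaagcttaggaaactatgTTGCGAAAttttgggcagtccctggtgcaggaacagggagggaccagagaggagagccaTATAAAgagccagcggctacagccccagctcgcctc
Cfd (chr10:79890603-79890902, plus strand): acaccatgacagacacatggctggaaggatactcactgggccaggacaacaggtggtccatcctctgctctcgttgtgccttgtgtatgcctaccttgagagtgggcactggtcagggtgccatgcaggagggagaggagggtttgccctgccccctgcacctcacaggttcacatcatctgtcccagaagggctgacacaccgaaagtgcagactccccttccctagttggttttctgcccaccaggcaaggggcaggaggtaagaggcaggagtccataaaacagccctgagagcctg
C3ar1 (chr6:122856108-122856407, minus strand): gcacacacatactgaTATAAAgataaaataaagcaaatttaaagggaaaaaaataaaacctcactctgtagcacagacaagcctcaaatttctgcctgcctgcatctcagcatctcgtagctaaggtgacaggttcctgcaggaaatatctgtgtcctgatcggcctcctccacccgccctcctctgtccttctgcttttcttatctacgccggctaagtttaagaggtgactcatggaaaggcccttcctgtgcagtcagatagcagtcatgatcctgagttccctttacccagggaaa
In C3 a C/EBP match, TTGCGAAA, began 45 bases before the annotated start, and TATAAA began 14 bases after it. In C3ar1 the only match was TATAAA, 235 bases before the start. The Cfd window held none of the 5 motifs. Of all 32851 RefSeq promoter windows of this length, 10.8% held the C/EBP letters, 13.6% TATAAA, 8.46% the NF-kB site, 8.30% the STAT letters and 3.44% the interferon-stimulated response element. A match of letters is a description of the window, and occupancy by a factor was not measured.

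Raw endogenous totals were 98258 to 126058 per control lane, 129391 to 164383 per low-dose lane and 128258 to 196878 per high-dose lane. Counts below are scaled by the geometric mean of 6 reference genes unless called raw, and each gene has its own probe pair, so levels are compared within a gene and not between genes. Raw counts were 6934 to 46912 for C3, 52 to 2915 for Cfb and 96 to 410 for C3ar1, but only 2 to 2044 for Cfd, whose lowest values are measured least precisely. Each mouse is a separate animal, so the spread includes differences between animals. In bulk tissue, a change in the number of cells of a type and a change in RNA per cell cannot be told apart. The share of imaged fields that were counted was 62.3% to 90.2%, and control mice 2 and 4 were the lanes below 75%. Without both of them the calls at the high dose were kept for C3, Cfb and C3ar1.

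C3 and Cfb rose in the oviducts of high-dose mice, and C3ar1 rose with them, while Cfd did not pass the test in any comparison. At the low dose only Cfb passed. Between the high and low doses none of the 4 genes passed an adjusted p of 0.05, although every high-dose mouse had more C3 than every low-dose mouse. High dose against control, 3 of the 4 genes were called higher, against a background of 22.4% of the 165 genes tested. Their log2 fold changes had a median of 1.58, against 0.24 over all genes tested. In the comparison of low dose with control 1 of 4 was called, against 2.42% of the panel, with a median of 0.81 beside 0.08 for all genes. The high against the low dose gave 0 of 4 calls by edgeR, against 6.67% of the panel, with medians of 0.76 and 0.21. In that comparison 2 of the 4, C3 and Cfb, were higher at an unadjusted edgeR p below 0.05, beside 36 of the 165 genes. DESeq2 called both, among 19 of the 165 genes that it called higher.

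**Figure D1:**
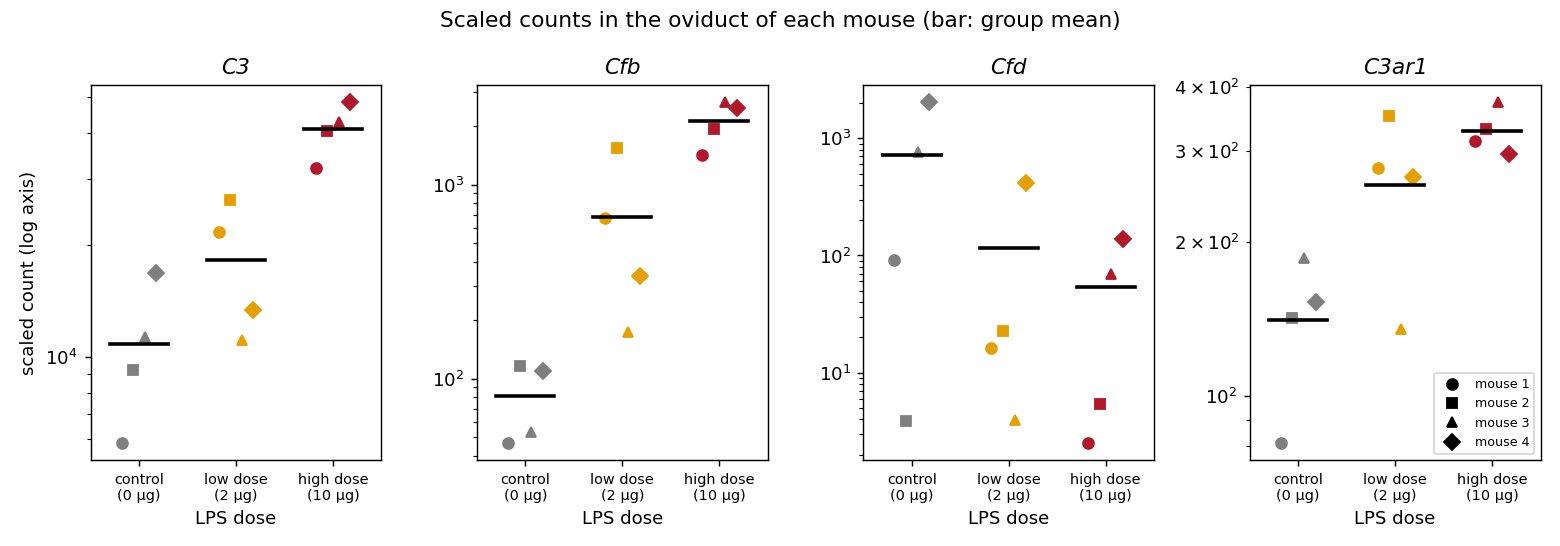
Scaled counts (log axis) of each gene in each mouse, by LPS dose, with a bar at the group mean and a symbol for each mouse number from the labels. The high-dose mice lie above all controls for C3, Cfb and C3ar1, whereas Cfd spreads widely within each group.

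C3 encodes the protein on which all complement pathways converge. Its mRNA had scaled counts of 5849, 9200, 11332 and 16824 in control mice 1 to 4. Low-dose mice 1 to 4 had 21682, 26411, 11122 and 13374, and high-dose mice 1 to 4 had 32249, 40560, 42846 and 48423. All high-dose mice lay above all mice of both other groups, while low-dose mice 3 and 4 lay within the control range and low-dose mice 1 and 2 above it. Group means (± SD, n = 4 each) were 10802 ± 4606 for control, 18147 ± 7140 for low-dose and 41019 ± 6715 for high-dose mice. The high dose against control gave a log2 fold change of 1.93 ± 0.34 (SE), 3.80-fold, with an edgeR adjusted p of 0.00185. Low dose against control gave 0.75 ± 0.33 with an adjusted p of 0.344, which did not pass. For the high against the low dose it was 1.18 ± 0.34, with an adjusted p of 0.0595. The groups of that last comparison did not overlap, as for 14.5% of the 165 genes, and it passed with DESeq2 and limma-voom, and in 3 of the 12 fits that left out 1 mouse, those without control mouse 1, control mouse 4 or low-dose mouse 2.

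The C3 probe pair took 22.7% ± 1.98 of all endogenous counts in high-dose lanes and 8.86% ± 3.32 in control lanes (SD, n = 4 each). Low-dose lanes lay between, at 13.6% ± 4.04. The mean raw endogenous total was 48841 counts higher at the high dose than in controls, and C3 alone made up 56.2% of that difference. Unscaled counts also carry differences between lanes. The reference gene scale was 0.77 to 1.19 in control, 1.01 to 1.25 in low-dose and 0.80 to 1.09 in high-dose lanes. Without correction for this, C3 made up 93.3% of the difference between the high and low doses and 33.0% of that between low dose and control. A scale taken from the total count therefore contains C3 itself, and high dose against control the C3 log2 fold change was 1.36 by total count, 1.58 by the total without C3, a setting chosen after seeing the data, and 1.93 by the reference genes.

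Cfb, the gene of factor B, which provides the catalytic part of the alternative pathway's C3-splitting enzyme, had the largest log2 fold change of the 4 genes in each comparison. Control mice 1 to 4 had scaled counts of 46.4, 116.5, 53.2 and 109.7. Low-dose mice had 672.5, 1538, 173.7 and 337.9, and high-dose mice had 1427, 1942, 2662 and 2493. Every mouse of either LPS dose lay above every control. Low-dose mouse 2 lay within the range of the high-dose mice, and the other low-dose mice lay below it. The means were 81.4 ± 36.8 for control, 680.6 ± 608.4 for low-dose and 2131 ± 561 for high-dose mice (SD, n = 4 each). At the high dose Cfb rose over control by a log2 fold change of 4.71 ± 0.66, 26.2-fold, with an edgeR adjusted p of 0.000467.

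Low dose against control, the Cfb log2 fold change was 3.07 ± 0.61, 8.38-fold, with an edgeR adjusted p of 0.0223. The groups did not overlap, which held for 3.64% of the 165 genes. Leaving out control mouse 1, 2, 3 or 4 or low-dose mouse 1 ended the low-dose call, with edgeR adjusted p-values from 0.0532 to 0.101. The log2 fold changes were then 2.87 to 3.29, on both sides of 3.07, with SEs of 0.67 to 0.72. Without low-dose mouse 2, which had the highest value of its group, the log2 fold change was 2.28 and passed, with an adjusted p of 0.0479. Between the high and the low dose the difference was 1.65 ± 0.57, with an adjusted p of 0.103. Without low-dose mouse 2 it was 2.43, with an adjusted p of 0.0107. With all mice kept, DESeq2 and limma-voom passed it too, with adjusted p-values of 0.0319 and 0.0305. The test that the series names also passed it. Its F test over the 3 groups had an adjusted p of 0.00352, and its least significant difference an unadjusted p of 0.0104.

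**Figure D2:**
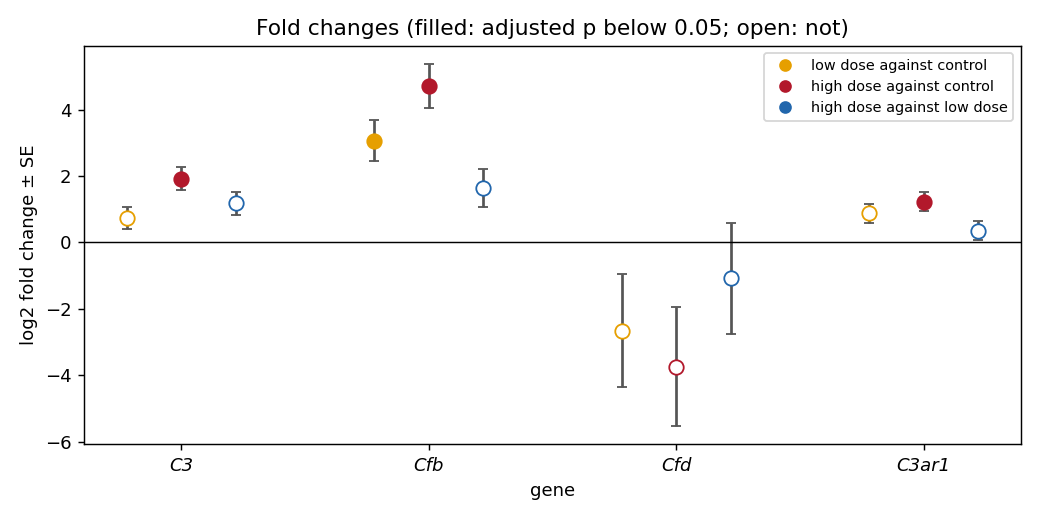
Log2 fold changes with standard errors of the 4 genes in the 3 comparisons of 4 mice each. Filled points have an adjusted p below 0.05: Cfb in both comparisons with control, and C3 and C3ar1 at the high dose.

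Because C3 and Cfb encode partners in 1 enzyme, their balance was also read within each lane, as a ratio of raw counts that needs no scale between lanes. As counts of different probes, only the change of this ratio has a meaning, not its level. In controls the Cfb count was 0.793%, 1.27%, 0.469% and 0.652% of the C3 count in mice 1 to 4. Low-dose mice had 3.10%, 5.82%, 1.56% and 2.53%, and high-dose mice had 4.43%, 4.79%, 6.21% and 5.15%. All LPS-treated mice lay above all controls. The mean log2 ratio was 2.78 higher at the high dose than in controls and 1.96 higher at the low dose than in controls. Each had a p of 0.0286 by a two-sided exact permutation test over mice, the smallest that 4 against 4 allows, and 0.129 after adjustment over the 9 ratio comparisons made. Between high-dose and low-dose mice the difference was 0.81, with an exact permutation p of 0.114 and 0.257 after adjustment. None of the ratio differences passed after adjustment. The Cfb to C3 comparisons with control, already at the smallest p, could not have passed unless several other ratio comparisons had reached it too.

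**Figure D3:**
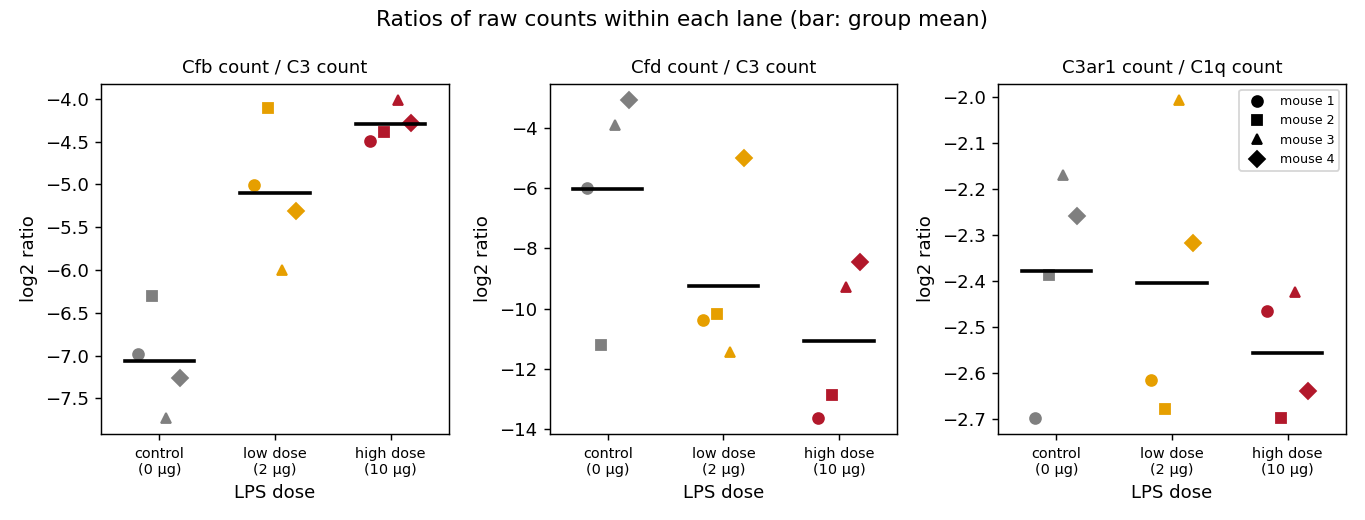
Log2 ratios of raw counts within each lane for Cfb over C3, Cfd over C3 and C3ar1 over the geometric mean of C1qa and C1qb, by LPS dose, with a bar at the group mean. The Cfb to C3 ratio of each LPS-treated mouse lies above those of all controls, whereas the groups overlap for both other ratios.

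Cfd, the gene of factor D, behaved unlike the other alternative pathway protease. Scaled counts in control mice 1 to 4 were 92.0, 3.88, 757.9 and 2039. Low-dose mice had 16.3, 22.8, 3.98 and 417.1, and high-dose mice had 2.50, 5.42, 69.4 and 138.0. Each group thus held mice with almost no signal and mice with much more, and the groups overlapped. Its raw count lay above the limit set by the negative control probes in 3 of 4 control, 4 of 4 low-dose and 3 of 4 high-dose lanes. The SD of log2 values within groups was 3.10 for Cfd, the largest of the 165 genes, against 0.90 for Cfb, 0.52 for C3, 0.46 for C3ar1 and a median of 0.33.

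Against control, Cfd at the high dose had a log2 fold change of −3.74 ± 1.79 with an edgeR adjusted p of 0.174. It was −2.40 without control mouse 4, which had the most Cfd, and −4.76 without high-dose mouse 4. Low dose against control gave −2.66 ± 1.69 with an adjusted p of 0.507, which was −1.31 without control mouse 4 and −5.66 without low-dose mouse 4. For the high against the low dose it was −1.08 ± 1.66 with an adjusted p of 0.758. Without low-dose mouse 4, which held most of its group's Cfd, this last value turned to 1.91. None of these fits passed. Relative to C3 in the same lane, Cfd was lower by a log2 difference of −5.03 at the high dose (exact permutation p of 0.0857, 0.257 adjusted) and of −3.21 at the low dose (exact permutation p of 0.229, 0.343 adjusted). Paired by the mouse number of the labels, the high-dose mouse had the lower ratio in 4 of 4 pairs (two-sided exact permutation p of 0.125, the smallest that 4 pairs allow), a test added after seeing the data. Between the high and low doses the Cfd to C3 ratio differed by −1.81 (exact permutation p of 0.4, 0.482 adjusted). The panel held 0 of 5 listed adipocyte markers, so the fat content of the samples could not be read.

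C3ar1, the receptor gene, had scaled counts of 81.0, 142.4, 186.2 and 152.6 in control mice 1 to 4. Low-dose mice had 278.8, 350.9, 135.5 and 267.5, and high-dose mice had 313.7, 331.7, 374.5 and 296.9. All high-dose mice and 3 of 4 low-dose mice lay above all controls, and low-dose mouse 3 lay among the controls. They averaged 140.5 ± 43.9 for control, 258.2 ± 89.8 for low-dose and 329.2 ± 33.4 for high-dose mice (SD, n = 4 each). At the high dose against control the log2 fold change was 1.23 ± 0.29, 2.34-fold, with an edgeR adjusted p of 0.00838. C3, Cfb and C3ar1 were thus 3 of 4 genes without overlap at the high dose, beside 25.5% of the panel.

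Low dose against control gave 0.88 ± 0.29 for C3ar1, with an edgeR adjusted p of 0.167. Without low-dose mouse 3 it was 1.09 and passed, with an adjusted p of 0.0131. The high dose minus the low dose gave 0.35 ± 0.29, with an adjusted p of 0.491, so that these neighbouring levels did not differ beyond their spread. The high-dose call was lost under the test that the series names, whose F test over all 3 groups had an adjusted p of 0.0639. That p is for the 3 groups together and not for the high dose against control.

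Some cell type markers were higher at the high dose along with C3ar1. The 3 macrophage and monocyte markers on the panel of 7 listed (C1qa, C1qb and Ccr2) summed to scaled counts of 1389 to 1891 in controls, 1222 to 4763 in low-dose mice and 3720 to 4727 in high-dose mice. C1qa and C1qb carried that sum, and Ccr2 alone stood at 0.17 ± 0.42 on the log2 scale for high dose against control (edgeR adjusted p of 0.841). The 3 of 5 neutrophil markers on the panel (Il8rb, Il8ra and Itgb2) summed to 77.6 to 125 in controls, 125 to 282 in low-dose mice and 196 to 357 in high-dose mice. Itgb2 carried most of that sum, with means of 99.8 in controls and 234.3 in high-dose mice. Il8rb had means of 4.45 and 46.8, and Il8ra of 2.28 and 5.44. T and NK cell markers, 5 of 6 on the panel, were Cd4, Ccr4, Cd40lg, Fasl and Lta. They summed to 45.6 to 75.1 in controls, 59.0 to 120.8 in low-dose mice and 75.4 to 84.6 in high-dose mice. None of the 5 passed for high dose against control, with edgeR adjusted p-values from 0.161 (Cd40lg) to 0.984 (Lta). Ccr4, Cd40lg and Fasl had few counts, with high-dose means of 6.59, 5.01 and 7.24. The muscle and vessel genes Myl2 and Pdgfa, 2 of 5 on the panel, summed to 623 to 834 in controls, 648 to 912 in low-dose mice and 735 to 883 in high-dose mice, ranges that overlap. The part of neutrophils and lymphocytes in the C3ar1 values was not tested.

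Measured against C1qa and C1qb, subunit genes of C1q that macrophages express, the groups overlapped in C3ar1. The C3ar1 count was 15.4%, 19.1%, 22.2% and 20.9% of the geometric mean of the C1qa and C1qb counts in control mice 1 to 4. It was 16.3%, 15.6%, 24.9% and 20.1% in low-dose mice and 18.1%, 15.4%, 18.6% and 16.1% in high-dose mice. The log2 difference was −0.18 for high dose against control (exact permutation p of 0.2, 0.343 adjusted) and −0.03 for low dose against control (exact permutation p of 0.914, raw and adjusted). For high against low dose it was −0.15 (exact permutation p of 0.429, 0.482 adjusted).

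Across the 12 mice, C3, Cfb and C3ar1 varied together and Cfd did not. Pearson's r of log2(scaled count + 1), a description over mice that share lane and scale, was 0.94 for C3 and Cfb, 0.89 for C3 and C3ar1 and 0.90 for Cfb and C3ar1. With the group means removed, these were 0.80, 0.77 and 0.70. Cfd gave −0.16 with C3, −0.35 with Cfb and −0.16 with C3ar1, and 0.40, 0.08 and 0.34 with the group means removed.

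The panel genes most like C3 by this measure were C4a, of the C4 family, with an r of 0.98, and the classical pathway protease genes C1r with 0.97 and C2 with 0.95. With group means removed they gave 0.92, 0.89 and 0.89. C4a has a near-identical copy, C4b, so its count is uncertain as to which copy it came from. For Cfb they were the chemokine gene Cxcl10 with 0.97, C1r with 0.96 and the chemokine gene Ccl5 with 0.95, and 0.86, 0.94 and 0.87 within groups. For C3ar1 they were C1qa and C1qb with 0.96 each and the integrin subunit gene Itgb2 with 0.94, and 0.91, 0.90 and 0.86 within groups. Cfd had no close companion: its nearest were Il13 with 0.72, Lta with 0.59 and C6 with 0.50, and 0.77, 0.63 and 0.56 within groups. Those 3 genes had few raw counts, 3 to 8 for Il13, 8 to 23 for Lta and 4 to 27 for C6.

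Of 33 other complement genes listed, 17 were on the panel and 14 were tested. At the high dose 7 of the 14 rose over control and 0 fell, beside 22.4% of all 165 genes called higher. Their median log2 fold change over the 14 was 0.82, against 0.24 for all genes. At an unadjusted edgeR p below 0.05, 8 were higher and 0 lower, beside 53 and 0 of the 165 genes. The highest were C1s at 2.14 ± 0.35 (edgeR adjusted p of 0.00102) and C1r at 2.07 ± 0.27 (0.000344), the proteases of the C1 complex, and C4a at 1.78 ± 0.34 (0.00262). C2, the classical pathway's counterpart of factor B, rose by 1.18 ± 0.29 (0.0112), less than Cfb's 4.71, though the difference between them was not tested. Itgb2, the common subunit of receptors that bind a fragment of C3b, rose by 1.23 ± 0.31 (0.0119). Hc, the gene of complement C5, the next protein to be split after C3, stood at 0.07 ± 0.40 (0.916). C1qa and C1qb, at 1.50 and 1.39, complete the 7 that rose.

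Low dose against control, 0 of the 14 other complement genes passed by edgeR in either direction, beside 2.42% of all genes, with medians of 0.38 and 0.08. At an unadjusted edgeR p below 0.05, 5 were higher and 0 lower, beside 21 and 2 of the 165 genes. DESeq2 called 1, C1qa, beside 7 of the 165. High against low dose 2 rose, beside 6.67% of all genes: C1r by 1.32 and C1s by 1.29, with adjusted p-values of 0.00999 and 0.0433. Calls over the whole panel depended on the scaling. For high dose against control, edgeR called 37 genes higher and 0 lower by the reference genes, 34 and 23 by TMM, 34 and 25 by DESeq2 size factors, and 30 and 62 by total count, with a median of −0.34 by total count. C3, Cfb and C3ar1 were called higher at the high dose under each of these scalings. For C3ar1 the log2 fold change by total count was 0.67.

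**Figure D4:**
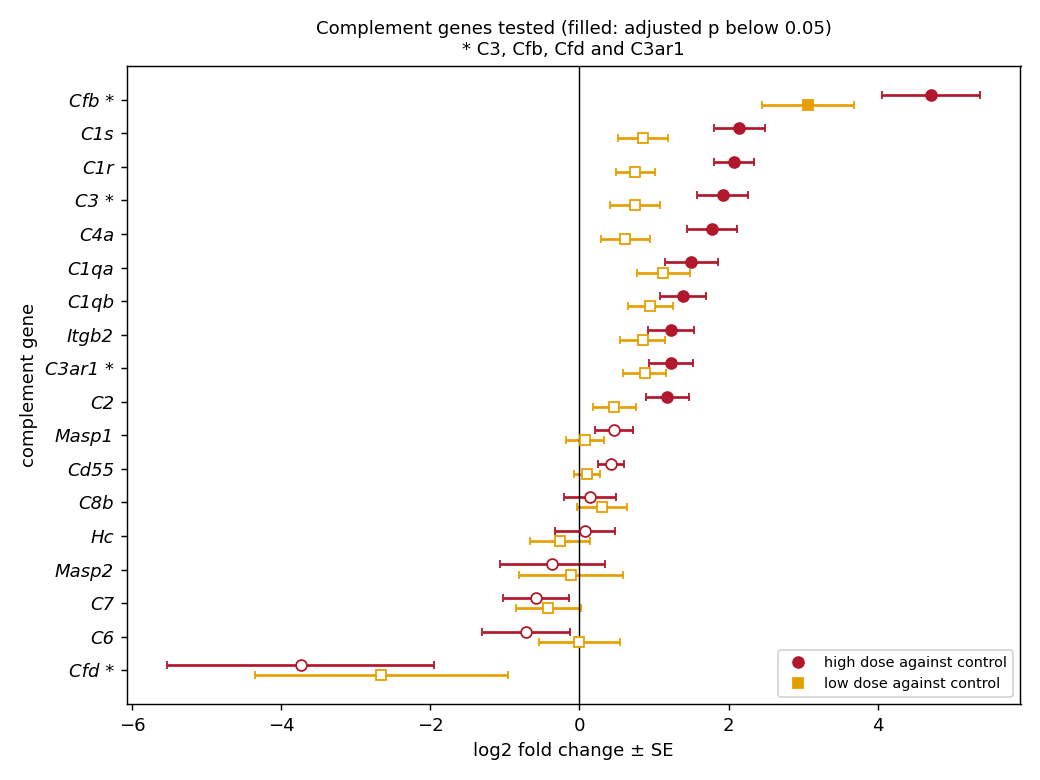
Log2 fold changes with standard errors of the 18 complement genes tested, for high dose against control (circles) and low dose against control (squares), filled where the adjusted p was below 0.05. Asterisks mark the 4 genes described here. Cfb has the highest fold change in both comparisons and Cfd the lowest.

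**Figure D5:**
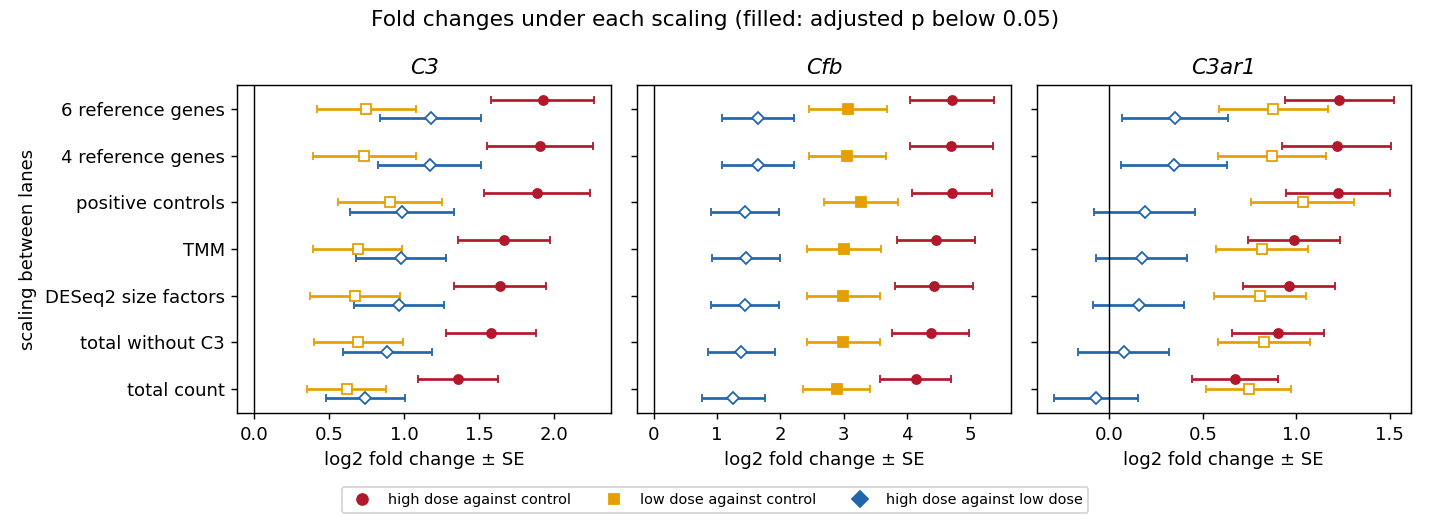
Log2 fold changes with standard errors of C3, Cfb and C3ar1 under 7 scalings between lanes, filled where the adjusted p was below 0.05. High-dose calls against control stand under all 7 scalings, and the fold changes are lowest by total count.

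Among 19 listed genes of stimuli and factors known to induce C3 or Cfb, 14 were on the panel and 12 were tested. Those that rose over control at the high dose by edgeR included Il1b, Tlr2 and Ly96, beside 22.4% of all 165 genes called higher. At that dose DESeq2 also called Tnf, Nfkb1 and Cebpb, among 45 of the 165 genes that it called higher. None of the 12 passed for low dose against control by edgeR, beside 2.42% of all 165 genes called higher. An unadjusted edgeR p below 0.05 was reached by 0, beside 21 higher and 2 lower of the 165. DESeq2 called 0, beside 7 of the 165. Il1b, the gene of interleukin-1β, rose by 1.27 ± 0.34 (edgeR adjusted p of 0.0178). Tnf stood at 2.06 ± 0.72 (0.0611), Il6 at 0.75 ± 0.97 (0.655) and Tlr4, the gene of the LPS receptor, at 0.29 ± 0.14 (0.161). Ifng was above the negative control limit in 3 of 12 lanes and was not tested.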

How the data were processed

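Counts of mRNAs in oviducts of 12 mice came from the nCounter GX Mouse Inflammation Kit, which tallies fluorescent barcodes on probe pairs, per the labels' protocols. In the file the authors deposited, raw counts fill 1 column per mouse. These deposited values were treated under the unit of estimated counts, because a binding density with decimals stands in the same columns. All probe values were whole, so rounding left them as they were. Software before the counts is not given in the sources used here.

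Groups came from sample titles. The scale of a lane was the geometric mean of its 6 reference genes. Genes were tested when above the mean plus 2 SD of the 8 negative control probes in at least 4 lanes, which kept 165. Testing used edgeR 4.0.16 (R 4.3.3, limma 3.58.1), quasi-likelihood fits over all 12 lanes offset by that scale and Benjamini-Hochberg adjustment over 165 genes, threshold 0.05. Standard errors come from the F statistic. Ratios within lanes were tested by exact permutation over mice. The procedure was tested on simulated data. Lanes of a group differed by a chi-square of at least 16.6 per degree of freedom, so no lanes were duplicates.

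Named are the 4 genes; C2, Hc and Itgb2 and the 3 highest past the threshold per comparison among other complement genes, with all that fell; Il1b, Il6, Tnf, Ifng and Tlr4; and the 3 panel genes most alike to each of the 4. C1qa, C1qb, Tlr2, Ly96, Nfkb1 and Cebpb are named beyond this, after their values were seen. An item of the lists is not reported here. The genes, lists and tests were chosen with earlier results of these data known. The probe accessions of 4 of 4 genes carry the same symbols in RefSeq's table of GRCm38.p6, which also gave the promoters.

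Alternatives were other scalings, DESeq2 1.42.0, limma-voom, the test the series names (a model of 3 groups followed by least significant differences, run here on log2 scaled counts), other filters, background subtraction, leaving out mice, fits of only the groups compared, and the replicate number as a block. Mice with the same number in the high-dose and control groups had correlations of 0.11 to 0.39, with 4 of 4 pairs over 0.1. Those of different numbers had −0.43 to 0.43, and only 4 of 8 mice were most like their own number. The numbers were taken as pairs only in the block and in the paired ratio tests. The main fits and ratio tests were unpaired. The labels do not say what the number marks.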

Additional observations from a re-analysis of the deposited data

Results flagged for a closer look

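Cfd in low-dose mouse 4, with a scaled count of 417.1, stood far from the other low-dose mice, at 16.3, 22.8 and 3.98. Of 21 groups of 4 mice examined this way it was the only one, and chance marks about 1 in 20.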

How the results depend on the processing

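Of the calls at the high dose against control, C3 and Cfb were kept in 27 of 27 alternatives, with log2 fold changes of 1.36 to 2.26 and 4.14 to 5.42. C3ar1 was kept in 26 of 27 (0.67 to 1.40) and lost under the test the series names (1.28). Cfb low dose against control was lost by limma-voom (2.76), with only the 2 groups fitted (3.07) and without control mice 2 and 4 (3.77); leaving out 1 mouse gave 2.28 to 3.39. For C3 high against low dose, DESeq2 (1.18), limma-voom (1.25) and the series' test (1.25) passed, as did 3 of the fits without 1 mouse, controls 1 and 4 and low-dose mouse 2 (range 1.00 to 1.41). For Cfb in that comparison DESeq2 (1.65), limma-voom (2.06) and the series' test (2.06) passed, and leaving out 1 mouse gave 1.33 to 2.43. C3ar1 high against low dose changed sign by total count (−0.0712). Leaving out 1 mouse gave −2.10 to 1.91 for Cfd high against low dose and 0.69 to 1.09 for C3ar1 low dose against control. The C3ar1 to C1q ratio, low dose against control, was 0.0441 with C1qb alone and −0.158 to 0.0665 leaving out 1 mouse. The cause of these changes was not tested. With the replicate block no call of the 4 genes changed: high dose against control gave 1.96 for C3, 4.87 for Cfb, −3.42 for Cfd and 1.25 for C3ar1, with 2.78 for Cfb over C3, −5.03 for Cfd over C3 and −0.18 for C3ar1 over C1q (each exact permutation p at least 0.125), and Cfb low dose against control 2.92 (adjusted p of 0.0496). The block called 34 genes higher at the high dose, 3 at the low dose and 11 high against low dose, against 37, 4 and 11 without it. For low dose against control the same-number correlations were −0.13 to 0.28, with 5 of 8 mice most like their own number, and for high against low dose −0.16 to 0.59, with 4 of 8. Panel counts at the low dose were 7 by DESeq2, 2 by limma-voom, 11 by the series' test, 1 with only the 2 groups, 0 without control mice 2 and 4, 6 by positive controls and 1 to 14 leaving out 1 mouse. High against low dose they were 19 by DESeq2, 16 by limma-voom, 21 by the series' test, 9 higher and 36 lower by total count, 8 higher and 10 lower by the total without C3, 7 by positive controls, background subtraction or without control mice 2 and 4, and 6 to 14 leaving out 1 mouse. High dose against control, the series' test called 24, and the total without C3 called 33 higher and 30 lower. Requiring all 12 lanes above the limit removed Cfd. Cfd had only 2 to 5 raw counts in its 4 lowest lanes. Leaving out 1 mouse gave −4.76 to −2.40 for Cfd high dose against control and −5.66 to −1.31 low dose against control.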
